A study of Mus musculus with 4 samples.

Results

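The 9 genes described here are the apelin ligand and its receptor (Apln and Aplnr), the tip cell genes Esm1, Kit and Cxcr4, and the angiopoietin genes Angpt1 and Angpt2 with their receptor Tek and its relative Tie1. They were chosen by name from the gene tables of the count matrices, after earlier results of these data were known, and all 9 are in the matrices. Levels by cell class, the difference between HFpEF and NC libraries, and the detection of Apln and Aplnr in the same cell were part of that choice. The values of these genes between classes, between HFpEF and NC libraries and for Apln with Aplnr are therefore descriptions. The p-values beside them set the size of a difference against a spread over libraries and are not independent evidence.

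Apelin is a secreted peptide that signals through Aplnr, a G protein-coupled receptor, and in growing vessels the ligand is typical of the tip cell that leads a sprout. Esm1 (endocan) is a secreted proteoglycan, Cxcr4 is the receptor of the chemokine Cxcl12, and Kit is the receptor tyrosine kinase for stem cell factor (Kitl). Angpt1 is known as a product of mural cells that activates the receptor tyrosine kinase Tek (Tie2) on endothelium. Angpt2 is stored and released by endothelial cells (ECs) and can act against Angpt1 at Tek, and Tie1 is an orphan relative that pairs with Tek.

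The study sorted RFP-positive cells from the left ventricle of mice in which a tamoxifen-inducible Cdh5-CreER switched on a tdTomato reporter, so that the sort follows cells that used the endothelial Cdh5 promoter at recombination. The 4 libraries are NC 1 and NC 2, from mice on a control diet (10% of energy from fat), and HFpEF 1 and HFpEF 2. The HFpEF libraries are from mice on a high-fat diet (60% of energy from fat) with L-NAME in the drinking water. L-NAME, an inhibitor of nitric oxide synthase, was given at 0.5 mg/ml. All mice carried floxed SR-B1 (the scavenger receptor gene Scarb1) with the same Cre, on both copies (Sfl/fl/RΔEC) or on 1 copy (Sfl/+/RΔEC) in each diet, so no library comes from mice without the deletion. The labels do not say which genotype a library holds. The study compared 4 groups, each diet with each genotype, and there are 4 libraries. The 2 libraries of a diet thus probably differ in genotype and are then not replicates. Their spread, used below as the error between the diets, may hold that difference. The labels give neither age nor the number of mice in a library. Where nothing says that libraries came from separate animals, p-values between the diets measure only the spread between these 4 libraries. Between classes, where libraries are blocks, p-values measure only how the class differences vary over these 4 libraries.

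After cells with 200 genes or fewer, 20% or more mitochondrial UMIs or 1% or more hemoglobin UMIs were left out, 39829 of 41843 cells remained. NC libraries held 6687 to 7114 cells with a median of 3753 to 4125 UMIs, and HFpEF libraries held 5440 and 20588 cells with a median of 1736 and 1618 UMIs. Both NC libraries thus had more UMIs per cell than both HFpEF libraries. The deposited UMIs summed to between 11163876 and 48003732 a library. Cells were sorted into classes by marker lists that contain none of the 9 genes. Capillary ECs, which are the ECs that met no other class gate, numbered 4225 to 15451 a library, artery ECs 412 to 1800, vein ECs 49 to 258, and mural cells 229 to 581. Mural cells are those that met a list of pericyte and smooth muscle genes. Most of their UMIs came from cells that also held UMIs of at least 2 endothelial marker genes. The capillary markers Car4, Rgcc, Gpihbp1, Cd300lg, Timp4 and Fabp4 summed to between 32907 and 43532 CPM in capillary ECs, against at most 26724 in artery ECs. Libraries shared between 10 and 42 cell barcodes, which is at most 0.728% of either library of a pair.

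A level below is in CPM, the summed UMI count of a gene in a class and library scaled to a common total of UMIs. These sums do not separate fewer expressing cells from less RNA per cell. A single cell contributes few UMIs of most of these genes, and levels were compared between classes and libraries, never between genes.

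The gene models lie on 8 chromosomes of the mouse genome (GRCm38). Apln is at chrX:48025146-48034853 on the minus strand, Aplnr at chr2:85136225-85139923 on the plus strand, Esm1 at chr13:113209659-113218098 on the plus strand and Kit at chr5:75574916-75656722 on the plus strand. Cxcr4 is at chr1:128588199-128592293 on the minus strand, Angpt1 at chr15:42424723-42676977 on the minus strand and Angpt2 at chr8:18690263-18741562 on the minus strand. Tek, at chr4:94739289-94874976 on the plus strand, and Tie1, at chr4:118471191-118490061 on the minus strand, share a chromosome. No member overlaps a gene on its own strand. On the opposite strand, Esm1 overlaps Gzmk, Angpt1 overlaps Gm17473 and Angpt2 overlaps Mcph1.

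Among capillary, artery and vein ECs and mural cells, Apln and Aplnr had their highest mean level in capillary ECs. Apln, the ligand, reached 13.0 and 19.2 CPM in capillary ECs of NC 1 and NC 2, and 20.3 and 31.6 in those of HFpEF 1 and HFpEF 2. In artery ECs the same libraries gave 0, 3, 4 and 4 UMIs of Apln in all, or 0 to 4.14 CPM. Every capillary library lay above every artery and mural library, and Apln in artery ECs was 0.0369 of its capillary level in the fit (log2 fold change -4.76 ± 0.32 SE, edgeR quasi-likelihood test with libraries as blocks, adjusted p = 5.53e-13). Vein ECs held 3, 0, 3 and 11 UMIs, a range of 0 to 23.6 CPM that overlaps the capillary range, and the fitted difference from capillary ECs was -1.62 ± 0.38 (adjusted p = 0.0013).

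Aplnr, the receptor, reached 60.6 and 101 CPM in capillary ECs of NC 1 and NC 2, and 72.2 and 96.3 in those of HFpEF 1 and HFpEF 2. It stood at 5.18 to 13.1 CPM in artery ECs, so artery and capillary libraries did not overlap (log2 fold change -3.34 ± 0.14, edgeR, adjusted p = 2.6e-17). In vein ECs the range of Aplnr was 28.7 to 86.5 CPM and crossed the capillary range, with a fitted difference of -0.73 ± 0.16 (adjusted p = 0.00084). Vein ECs lay above every artery and mural library for Aplnr. The apelin receptor was thus found on the capillary and venous side, and at 0.0988 of the capillary level in arteries.

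**Figure D1:**
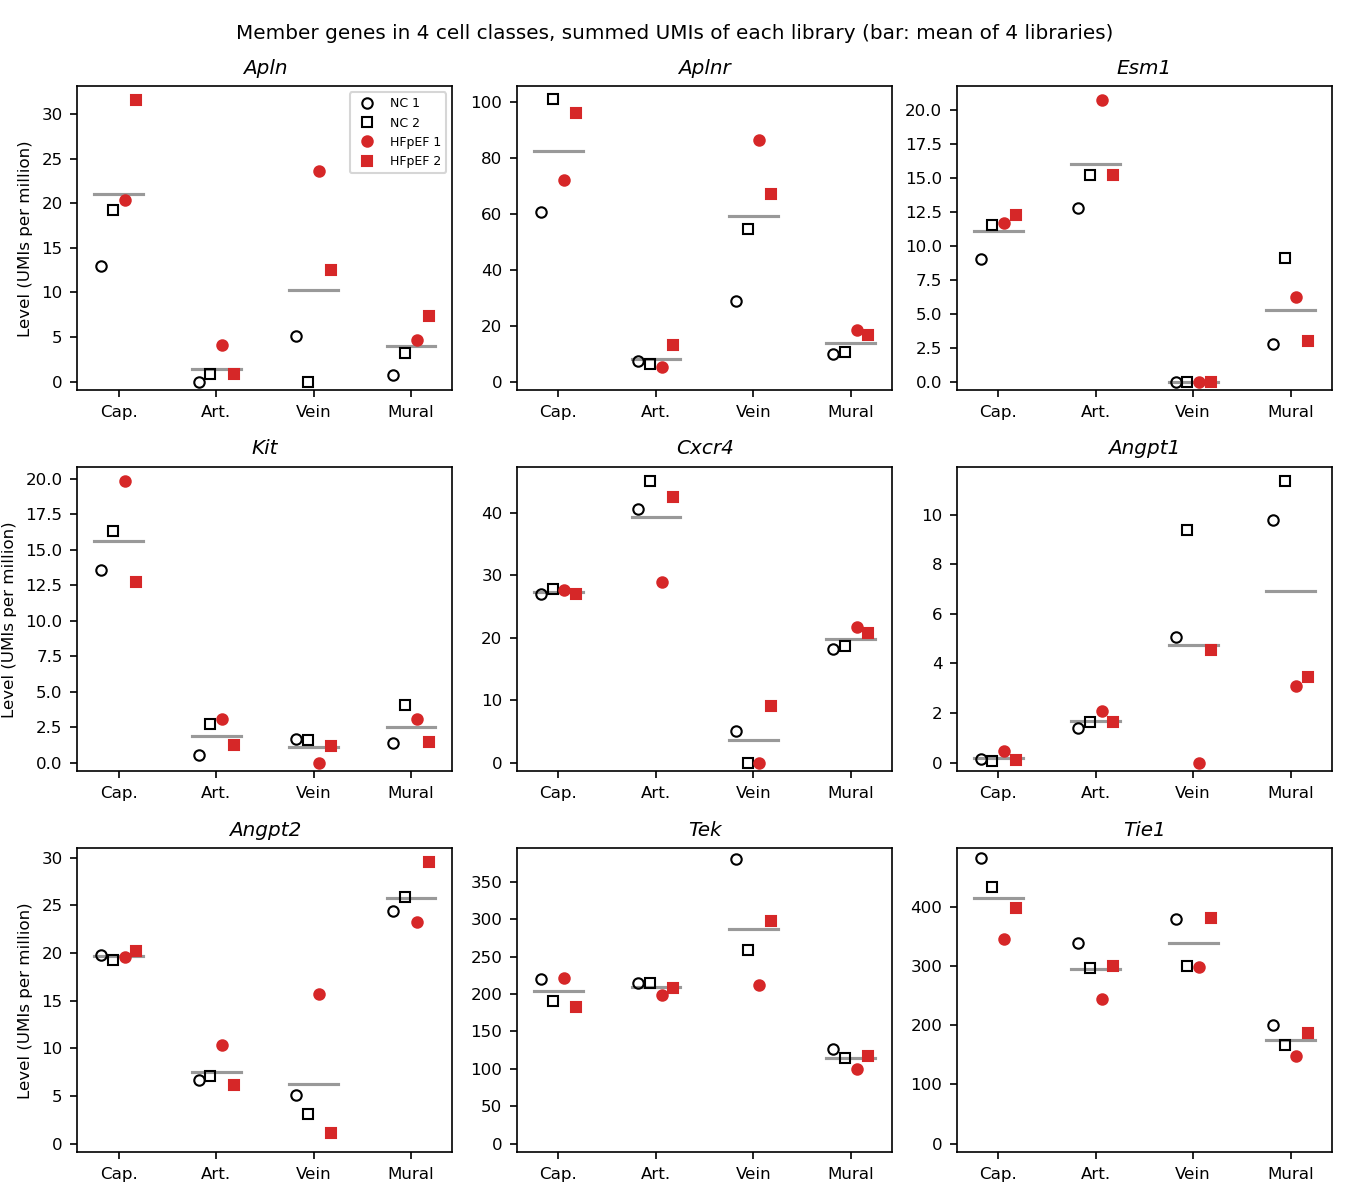
Level of each of the 9 genes (vertical axis, CPM of summed UMIs) in capillary, artery and vein ECs and mural cells; open black symbols are the NC libraries, filled red symbols the HFpEF libraries, and grey bars the mean of 4 libraries. Apln and Kit are highest in capillary ECs (means 21.0 and 15.6), Esm1 and Cxcr4 in artery ECs (15.97 and 39.3), Tek in vein ECs (288) and Angpt1 in mural cells (6.93).

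The 3 tip cell genes differed in where along the vascular tree they were found. Kit was a capillary gene here, at 13.6, 16.4, 19.9 and 12.7 CPM in capillary ECs of NC 1, NC 2, HFpEF 1 and HFpEF 2. Only 21 UMIs of Kit were found in all artery ECs and 3 in all vein ECs, and its level fell by 3.24 ± 0.23 on the log2 scale in artery ECs (edgeR, adjusted p = 1.44e-12). In vein ECs the ratio of Kit to capillary ECs, over summed UMIs, was 0.0923, with an exact 95% interval of 0.019 to 0.27 that covers counting error only.

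Cxcr4 was almost level over the capillary libraries, at 27.0 to 27.7 CPM in all 4. It rose in artery ECs, to 40.6, 45.1, 29.0 and 42.5 in NC 1, NC 2, HFpEF 1 and HFpEF 2 (log2 fold change 0.52 ± 0.11, edgeR, adjusted p = 0.000327), and all 4 artery libraries lay above all 4 capillary libraries. In vein ECs Cxcr4 had 3, 0, 0 and 8 UMIs and was lower by 2.54 ± 0.35 on the log2 scale (adjusted p = 9.2e-07).

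Esm1 reached 9.005, 11.5, 11.7 and 12.3 CPM in capillary ECs and 12.8, 15.2, 20.7 and 15.2 in artery ECs, again in the order NC 1, NC 2, HFpEF 1 and HFpEF 2. The artery libraries all lay higher, but the difference of 0.37 ± 0.15 did not pass the test (edgeR, adjusted p = 0.061). No UMI of Esm1 was found in the 536 vein ECs of any library, whereas 1006 were found in capillary ECs. Against a floor of 3 UMIs over all vein ECs, Esm1 was at least 8.33-fold lower in vein ECs. Kit, Cxcr4 and Esm1 were thus all low in vein ECs and parted in artery ECs, where Kit fell and Cxcr4 rose.

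Of the ligands of Tek, Angpt1 was nearly absent from capillary ECs, with 3, 1, 4 and 3 UMIs in NC 1, NC 2, HFpEF 1 and HFpEF 2. Mural cells held 14, 25, 2 and 7 UMIs of it, or 9.79, 11.4, 3.10 and 3.45 CPM. All mural libraries lay above all capillary libraries, and the ratio over summed UMIs was 62.3, with an exact 95% interval of 31.9 to 133 (log2 fold change 5.55 ± 0.50, edgeR, adjusted p = 1.54e-10). Both kinds of mural cell contributed: 38 of the 48 UMIs came from cells with more pericyte than smooth muscle markers. Artery ECs, with 5, 6, 2 and 8 UMIs, also lay above every capillary library (log2 fold change 3.43 ± 0.62, adjusted p = 5.6e-05). Vein ECs held 3, 6, 0 and 4 UMIs (log2 fold change 5.28 ± 0.80, adjusted p = 4.08e-06), where HFpEF 1 had none.

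The vein gate also carried RNA of other types. The fibroblast list (Col1a1, Col1a2, Col3a1, Dcn, Lum, Pdgfra and Dpt) summed to 640 to 1215 CPM in vein ECs against 8.18 to 13.4 in capillary ECs, with at least 3 of the 7 genes detected in every vein library. Fibroblasts themselves held Angpt1 at 32.0 to 60.5 CPM in 4 to 11 UMIs. The endocardial list was also raised, at 259 to 984 in vein against 7.18 to 14.6 in capillary ECs. The part of these cells in the vein values of Angpt1 was not tested.

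Angpt2 was close to constant over capillary libraries, at 19.8, 19.2, 19.6 and 20.3 CPM in NC 1, NC 2, HFpEF 1 and HFpEF 2. It was lower in artery ECs, at 6.16 to 10.4 (log2 fold change -1.59 ± 0.15, edgeR, adjusted p = 7.1e-10), and in vein ECs, where only 8 UMIs were counted (-2.51 ± 0.37, adjusted p = 2.45e-06). In mural cells it stood at 24.5, 25.9, 23.2 and 29.6, above all capillary libraries. That difference of 0.33 ± 0.13 passed the edgeR test narrowly (adjusted p = 0.0461) and did not pass with DESeq2 (adjusted p = 0.113), nor without NC 1, NC 2 or HFpEF 2 (0.109, 0.165 and 0.209).

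The receptors Tek and Tie1 were found in every endothelial class. Tek in capillary ECs was 221, 190, 221 and 183 CPM in NC 1, NC 2, HFpEF 1 and HFpEF 2, and its artery values of 199 to 215 lay within that range (log2 fold change -0.02 ± 0.07). Tek rose in vein ECs, to 381, 260, 212 and 297 (0.51 ± 0.09, edgeR, adjusted p = 5.99e-05), although HFpEF 1 lay within the capillary range. Tie1 in capillary ECs was 483, 434, 346 and 399, and fell by 0.57 ± 0.06 in artery ECs (adjusted p = 4.94e-09) and by 0.36 ± 0.07 in vein ECs (adjusted p = 0.000233) on the log2 scale. The Tie1 vein range of 299 to 381 CPM overlapped its capillary range. In the fit, the receptor Tek and its relative Tie1 thus ran in opposite directions in vein ECs. In HFpEF 1, however, both were lower in vein than in capillary ECs.

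Mural cells carried Tek at 99.2 to 127 and Tie1 at 147 to 201 CPM. Both were lower than in capillary ECs, by 0.90 ± 0.09 for Tek (edgeR, adjusted p = 6.58e-10) and 1.34 ± 0.07 for Tie1 (adjusted p = 1.39e-16) on the log2 scale. The same mural cells held the endothelial list Pecam1, Cdh5, Egfl7, Cldn5 and Emcn at 46.8% to 53.0% of its capillary level, and the capillary list at 13895 to 15739 CPM. When the mural gate was limited to cells with fewer than 2 genes of the endothelial list, the log2 fold changes were -3.55 for Tie1 and -3.202 for Tek. These limited cells held 133387, 298030, 101579 and 319592 UMIs in NC 1, NC 2, HFpEF 1 and HFpEF 2. All mural cells held 1430643, 2200096, 645401 and 2026537 in turn, so most mural UMIs came from cells with 2 or more endothelial list genes. No Apln UMI was found in the limited cells in any library. Angpt2 stood at 22.5, 50.3, 9.84 and 28.2 CPM there, from 3, 15, 1 and 9 UMIs, and its difference from capillary ECs was 0.61 (adjusted p = 0.136). Angpt1 had 1, 4, 2 and 2 UMIs and was not tested there.

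Counted over the genes, 7 of the 9 differed between artery and capillary ECs, where 29.6% of the 10854 genes tested did. Since the genes were chosen with their class levels known, nothing is read from these counts. Of these, 2 were higher in arteries (Cxcr4 and Angpt1) and 5 lower (Apln, Aplnr, Kit, Angpt2 and Tie1). In vein ECs 9 of 9 passed, against 29.4% of all genes, with 2 higher (Angpt1 and Tek) and 7 lower. In mural cells 9 of 9 passed, against 47.8% of all genes, with 2 higher (Angpt1 and Angpt2) and 7 lower. The median log2 fold change of the 9 genes was -0.57 in artery ECs, -1.62 in vein ECs and -1.15 in mural cells, where that of all genes was -0.01, -0.01 and 0.02. Neighbouring classes overlapped in level for several genes: vein, mural and artery values of Apln, mural, artery and vein values of Kit, and mural and artery values of Aplnr ran into each other.

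**Figure D2:**
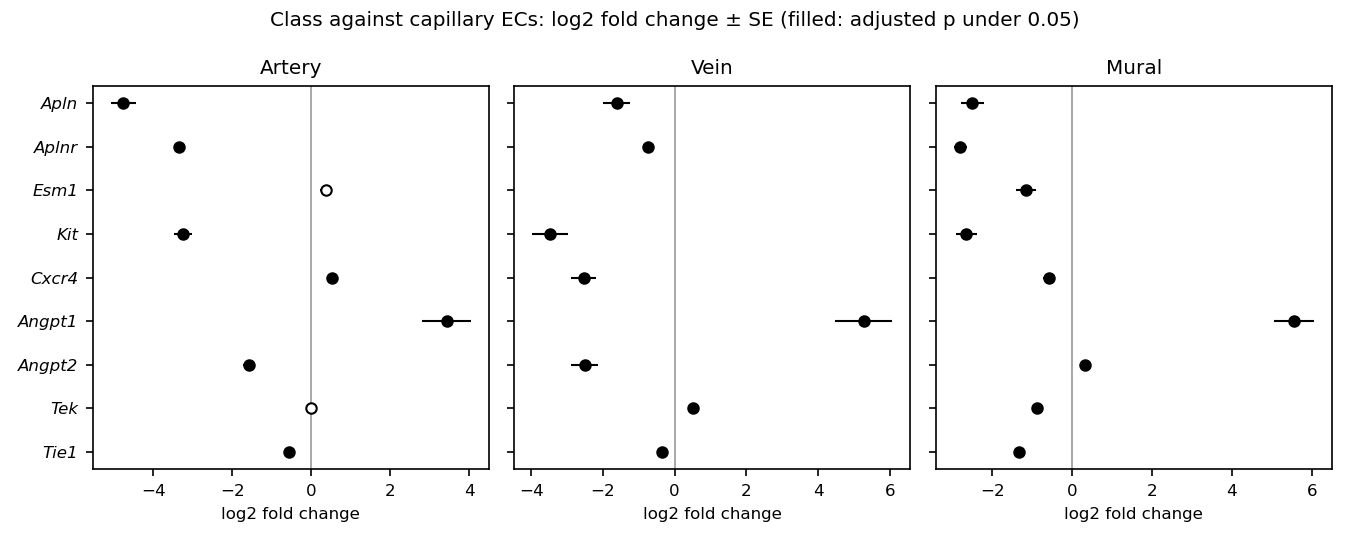
Log2 fold change with its standard error (horizontal axis) of each gene in artery ECs, vein ECs and mural cells against capillary ECs, from edgeR with 4 libraries as blocks; filled points had an adjusted p under 0.05, and Esm1 in vein ECs, with 0 UMIs, is left out. Angpt1 stands far to the right in all 3 panels (3.43, 5.28 and 5.55), and Apln and Kit to the left.

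The partners of these genes gave the following picture, from a list of 12 of which 7 had enough UMIs for the class tests. Cxcl12, the ligand of Cxcr4, was lower in vein ECs by 2.11 ± 0.08 on the log2 scale (edgeR, adjusted p = 4.32e-18), where Cxcr4 was also low. Ackr3, the other Cxcl12 receptor, was higher there, by 1.14 ± 0.15 (adjusted p = 2.89e-07). Kitl, the ligand of Kit, was lower in vein ECs by 0.82 ± 0.08 (adjusted p = 2.31e-09). Ptprb (VE-PTP), the phosphatase that acts on Tek, was higher in vein ECs by 0.55 ± 0.07 (adjusted p = 1.3e-07), as was Tek. In all, 3 of the 7 partners were higher and 0 lower in artery ECs, 3 higher and 2 lower in vein ECs, and 1 higher and 5 lower in mural cells. Of all genes tested, 29.6%, 29.4% and 47.8% were called in turn, in either direction. The second ligand of the apelin receptor, Apela, had no UMI in capillary, artery or vein ECs and 1 in mural cells. Of these 4 classes, Angpt4 had UMIs only in mural cells, with 1, 1, 1 and 4. Foxo1, a transcription factor downstream of Tek, was higher in vein ECs (0.46 ± 0.11) and lower in mural cells (-0.35 ± 0.09), Tnip2 was called in no class, and Mme, Svep1 and Dok2 had too few UMIs for a test.

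Other tip cell and sprouting genes were tested as a list of 18, chosen with earlier results of these data known. In artery ECs 5 were higher and 11 lower than in capillary ECs, in vein ECs 1 was higher and 13 lower, and in mural cells 3 were higher and 13 lower. Of all 10854 genes tested, 1595 were higher and 1616 lower in artery ECs, 1748 and 1441 in vein ECs, and 2855 and 2329 in mural cells. The median log2 fold change of the list was -0.44, -1.27 and -0.80 in turn, where that of all genes was -0.01, -0.01 and 0.02. Esm1, Kit, Apln and Angpt2 had the same sign as the median of the list in vein ECs and in mural cells, except Angpt2 in mural cells.

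Between the diets, Apln had the largest fitted difference of the 8 members tested in capillary ECs. The 2 HFpEF libraries (20.3 and 31.6 CPM) lay above the 2 NC libraries (13.0 and 19.2), although HFpEF 1 exceeded NC 2 by little. The fitted difference was 0.72 ± 0.24 on the log2 scale, or 1.65-fold, with an adjusted p of 0.209 by edgeR and 0.131 by DESeq2. Leaving out a library leaves 1 diet with a single library, which is then assumed to vary like the other diet. The difference passed the threshold without HFpEF 1 (0.95, adjusted p = 0.00959) and was 0.36 without HFpEF 2, 0.47 without NC 1 and 1.03 without NC 2 (adjusted p = 0.53, 0.419 and 0.146). With the library number as a replicate block its adjusted p was 0.0265, and without a filter on low counts 4.93e-05 (both edgeR). Both settings also called many more of all genes than the test reported, as given in the section on processing.

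Esm1 was also a little higher in both HFpEF libraries (11.7 and 12.3 against 9.005 and 11.5; log2 fold change 0.23 ± 0.16) and Tie1 lower in both (346 and 399 against 483 and 434; -0.30 ± 0.11, edgeR adjusted p = 0.247). Libraries of both diets overlapped for Aplnr (0.07 ± 0.24), Kit (0.07 ± 0.23), Cxcr4 (-0.00 ± 0.10), Angpt2 (0.03 ± 0.10) and Tek (-0.03 ± 0.14). So 2 of 8 tested members had both HFpEF libraries above both NC libraries, and 1 had both below. Over all 12577 genes tested in capillary ECs these shares were 24.1% and 25.6%, so that such an order was common here.

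None of the 8 members tested in capillary ECs passed the adjusted threshold, by edgeR or by DESeq2, where 0.00795% of all genes did by edgeR, a single gene (Cyp1a1, named after its value was seen). At an unadjusted p under 0.05, 2 of the 8 passed (Apln and Tie1), against 17.7% of all genes. In artery ECs 0 of 6 tested members passed (0.135% of all genes), in vein ECs 0 of 3 (0.274%) and in mural cells 0 of 7 (0.463%), by edgeR and by DESeq2. DESeq2 called 2.11%, 0.213%, 0.274% and 0.171% of all genes in capillary, artery and vein ECs and mural cells. The unadjusted counts of members in the last 3 were 0, 0 and 2, where 10.7%, 7.76% and 11.0% of all genes passed.

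In mural cells the 2 members with an unadjusted p under 0.05, Angpt1 and Aplnr, differed in sign. Angpt1 stood at 9.79 and 11.4 CPM in NC 1 and NC 2 and at 3.10 and 3.45 in HFpEF 1 and HFpEF 2, with a log2 fold change of -1.62 ± 0.51 (edgeR, adjusted p = 0.209). These levels rest on 14, 25, 2 and 7 UMIs. After thinning to 1000 UMIs, 2 of 225, 2 of 305, 2 of 212 and 4 of 516 mural cells held an Angpt1 UMI, too few to read an order from. In mural cells with fewer than 2 genes of the endothelial list, Aplnr had 0, 1, 0 and 1 UMIs in NC 1, NC 2, HFpEF 1 and HFpEF 2. The part of endothelial RNA in the mural values of Aplnr was not tested. Over all mural cells Aplnr was 9.79 and 10.5 in NC and 18.6 and 16.8 in HFpEF libraries (0.79 ± 0.34, edgeR, adjusted p = 0.41). In vein ECs Aplnr was likewise higher in both HFpEF libraries (86.5 and 67.2 against 28.7 and 54.8; 0.74 ± 0.36, adjusted p = 0.649), from 11 to 59 UMIs a library. In mural cells 2 of 7 members had both HFpEF libraries higher (Aplnr and Cxcr4) and 1 lower (Angpt1), where 18.3% and 23.0% of all genes did. In artery ECs 0 of 6 were higher and 1 lower (Tek), where 20.2% and 22.3% did, and in vein ECs 1 of 3 was higher (Aplnr) and 0 lower, where 19.0% and 19.4% did.

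**Figure D3:**
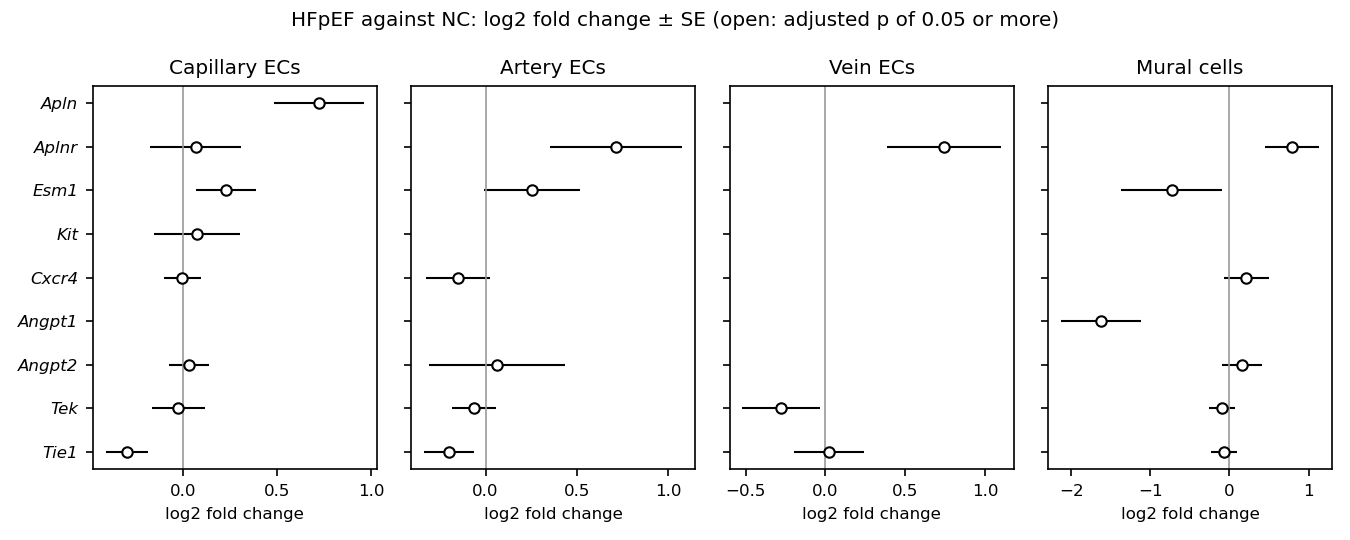
Log2 fold change of HFpEF against NC libraries (horizontal axis, with standard error, 2 libraries a diet) for the members with enough UMIs in capillary, artery and vein ECs and mural cells. All points are open, since none had an adjusted p under 0.05; Angpt1 in mural cells is at -1.62, Aplnr is at 0.72, 0.74 and 0.79 in artery ECs, vein ECs and mural cells, and Apln in capillary ECs is at 0.72.

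The lists around these genes, also chosen with earlier results of these data known, were tested in the same fit. By edgeR, 0 of 6 partners, 0 of 18 tip cell genes, 0 of 12 hypoxia-inducible genes and 0 of 12 immediate early and heat shock genes passed the adjusted threshold in capillary ECs. At an unadjusted p under 0.05 the counts were 1, 2, 4 and 3, where 17.7% of all genes passed. DESeq2, which called 2.11% of all genes here, called 0 partners, 1 tip cell gene (Plaur), 1 hypoxia-inducible gene (Vegfa) and 2 heat shock genes (Hspa1a and Hspa1b). The median log2 fold changes were 0.03, 0.02, 0.27 and 0.03, against -0.00 over all genes. Among the hypoxia-inducible genes, Vegfa (the main endothelial growth factor) was 61.3 and 51.0 normalized CPM in NC 1 and NC 2 and 74.6 and 90.7 in HFpEF 1 and HFpEF 2 (0.56 ± 0.14, adjusted p = 0.168). P4ha1 (0.47 ± 0.12) and Pdk1 (0.32 ± 0.13) were higher and Ndrg1 (-0.22 ± 0.11) lower in both HFpEF libraries, none of them called. Plaur, the urokinase receptor, of the tip cell list, was 70.1 and 53.8 against 109 and 139 (1.00 ± 0.17, adjusted p = 0.133). Diets did not overlap for 7 of the 18 tip cell genes, among them Igfbp3 (-0.43 ± 0.16), Trp53i11 (-0.27 ± 0.14) and Adm (0.26 ± 0.16). Such an order was common: of all genes tested in capillary ECs, 24.1% were higher and 25.6% lower in both HFpEF libraries. Those shares are from CPM of summed UMIs, the count of 7 from normalized CPM. Kitl was 454 and 532 against 654 and 623 (0.37 ± 0.12, adjusted p = 0.199). The heat shock genes, taken here as signs of cell handling, also separated the diets, Hspa1a at 2782 and 1715 against 5791 and 6516 (1.45 ± 0.23, adjusted p = 0.133) and Hspa1b at 2017 and 1005 against 4195 and 5540 (1.69 ± 0.32, adjusted p = 0.135). Dnajb1 (0.38 ± 0.14) and Zfp36 (0.12 ± 0.11) were higher by less. The part of handling and of the lower depth of the HFpEF libraries in the Apln difference was not tested.

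For single cells, each capillary EC was thinned to 1000 UMIs so that depth was equal, which left 5309 of 5504, 4946 of 5119, 3608 of 4225 and 12141 of 15451 cells in NC 1, NC 2, HFpEF 1 and HFpEF 2. An Apln UMI was then found in 0.81%, 1.17%, 1.47% and 2.22% of them, against 2.80%, 4.43%, 2.37% and 3.77% before thinning. Before thinning the order of the diets was mixed, and at equal depth both HFpEF libraries were higher. In mural cells of equal depth the share was 0 of 225, 0 of 305, 1 of 212 and 3 of 516 cells. A capillary EC with any Apln UMI held 1.69 to 1.98 of them on average, before thinning. Aplnr was found in 5.54%, 8.77%, 6.10% and 7.92% of thinned capillary ECs, and in 0.444% to 1.31% of thinned mural cells.

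Apln and Aplnr were found in the same thinned capillary EC in 6, 5, 1 and 16 cells of NC 1, NC 2, HFpEF 1 and HFpEF 2, 28 in all. If the genes were spread independently within each library, 32.1 such cells would be expected, so the ratio of observed to expected was 0.872, with a 95% Poisson interval of 0.58 to 1.26 that covers counting error only. Of 424 cells with Apln, 396 had no Aplnr UMI at this depth. Aplnr was found in 14.0% of cells with Apln and 5.47% of other cells in NC 1, and in 8.62% and 8.78% in NC 2. In HFpEF 1 the shares were 1.89% and 6.16%, and in HFpEF 2 they were 5.93% and 7.97%. The exact 95% intervals of the odds ratio, which take cells as units and cover counting error only, include 1 in all 4 libraries. Over all ECs at the same depth, the interval left out 1 in NC 1 (odds ratio 3.13, 1.07 to 7.53). It included 1 in NC 2, HFpEF 1 and HFpEF 2. The pair was part of the choice of genes and the count rests on 28 cells, so no verdict on independence is drawn.

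Without thinning, 316 cells held both against 187 expected, a ratio of 1.69 (1.51 to 1.88), and with 2000 UMIs a cell 80 held both against 66.8 expected, a ratio of 1.20 (0.95 to 1.49). The ratio at full depth, where cells differ in UMIs, was thus above that at either fixed depth.

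**Figure D4:**
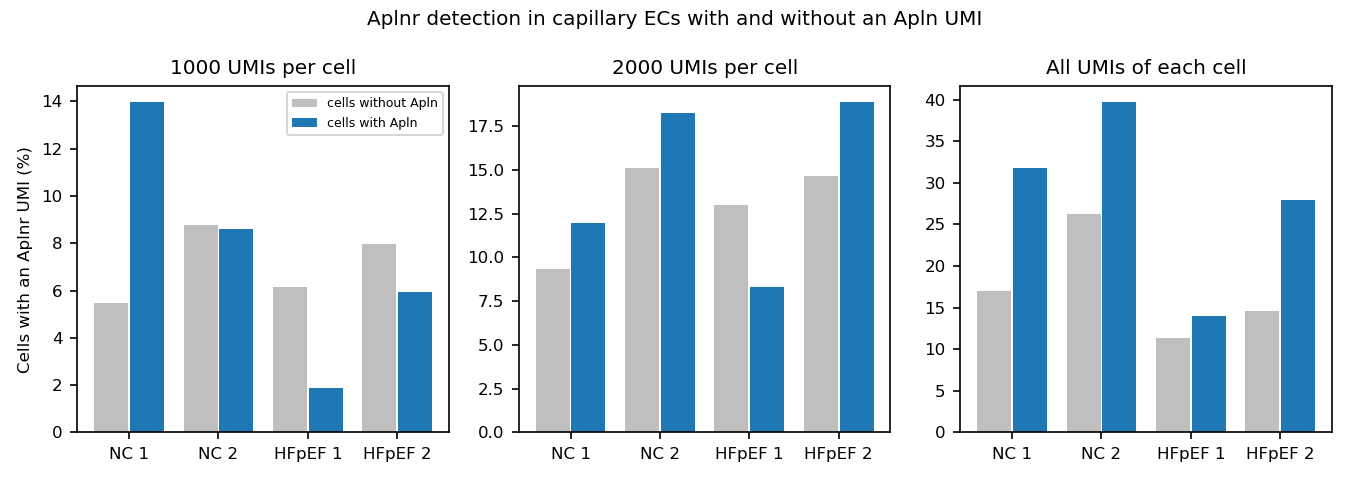
Share of capillary ECs with an Aplnr UMI (vertical axis, %) among cells with (blue) and without (grey) an Apln UMI, for each library, with cells thinned to 1000 UMIs, thinned to 2000 UMIs, or left at full depth. At 1000 UMIs the order differs between libraries (14.0% against 5.47% in NC 1, 5.93% against 7.97% in HFpEF 2), whereas at full depth the blue bars are higher in all 4.

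The same count was made for all 28 pairs of the members other than Angpt1, which had too few UMIs. These pairs were examined after the Apln and Aplnr result was seen, and the values are descriptions. The interval of the ratio, which covers counting error only, lay above 1 for 10 pairs, below 1 for 7 and included 1 for 11. Of the 10, Esm1 with Kit exceeded the expected number in only 2 libraries. Pairs of other genes were not counted, so how common such ratios are among genes in general is not known. Apln and Kit had the highest ratio of the 28, with 4, 3, 7 and 16 cells holding both in NC 1, NC 2, HFpEF 1 and HFpEF 2, where 0.494, 0.879, 0.984 and 2.82 were expected (30 against 5.18, a ratio of 5.79, 3.91 to 8.26). Apln with Angpt2 had 4, 3, 3 and 18 such cells (28 against 8.04, 3.48, 2.32 to 5.04), and Kit with Angpt2 21 against 6.09 (3.45, 2.13 to 5.27). All 3 pairs exceeded the expected number in all 4 libraries.

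Esm1 was found with Cxcr4 (23 against 5.91 expected, a ratio of 3.89, 2.47 to 5.84) and Angpt2 (14 against 4.26, 3.28, 1.79 to 5.51), and Apln with Cxcr4 (25 against 10.8, 2.32, 1.504 to 3.43). For Aplnr the counts with Esm1 and Cxcr4 were below those expected: 4 cells held Aplnr with Esm1 where 17.1 were expected (0.234, 0.0639 to 0.60), and 28 held it with Cxcr4 where 48.8 were expected (0.574, 0.381 to 0.83). Aplnr was found more often than expected with Tek (391 against 331, 1.18, 1.07 to 1.31) and Tie1 (717 against 628, 1.14, 1.06 to 1.23). Apln was found less often than expected with Tek (45 against 72.5, 0.62, 0.452 to 0.83) and with Tie1 (111 against 137, 0.808, 0.664 to 0.973). So the ligand Apln was found more often than expected with Kit, Angpt2 and Cxcr4, and the receptor Aplnr, by less, with Tek and Tie1. Most cells with Apln held none of its 3 partners in such a pair: of 424, 30 held Kit, 28 Angpt2 and 25 Cxcr4. All cells were brought to 1000 UMIs, so the genes of a cell share 1 total.

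**Figure D5:**
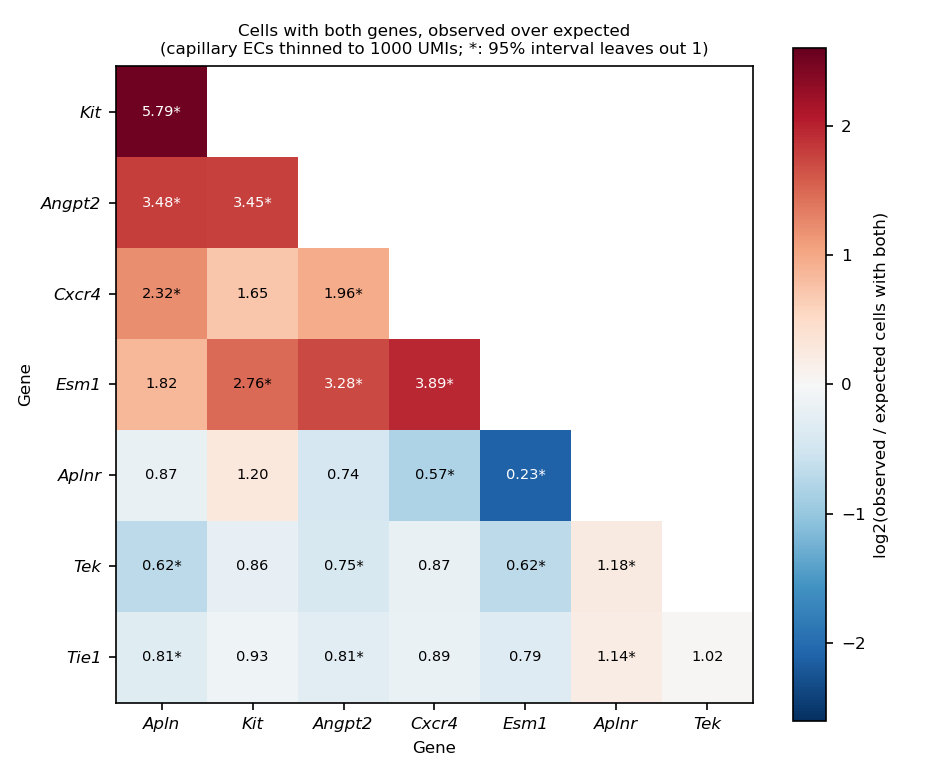
Number of thinned capillary ECs with UMIs of both genes over the number expected within libraries, for 28 pairs (colour, log2 of the ratio; printed, the ratio; asterisks mark 95% intervals that leave out 1). The upper block of Apln, Kit, Angpt2, Cxcr4 and Esm1 holds ratios from 1.65 to 5.79, and the pairs of Aplnr with Esm1 and Cxcr4 are at 0.23 and 0.57.

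Promoters are shown for Apln and Cxcr4, a pair found together more often than expected, for Esm1, found so with Cxcr4, and for Tek, found with Apln less often than expected. The 250 bases before the RefSeq start (GRCm38.p6) were taken for Apln (chrX:48034854-48035103, minus strand), Esm1 (chr13:113209409-113209658, plus strand), Cxcr4 (chr1:128592300-128592549, minus strand) and Tek (chr4:94739039-94739288, plus strand). They are written 5′ to 3′ on the strand of the gene. Capitals mark GGAAG, an ETS motif that holds the core GGAA, or its reverse complement CTTCC. They also mark the TATA box TATAAA or its reverse complement TTTATA.
Apln: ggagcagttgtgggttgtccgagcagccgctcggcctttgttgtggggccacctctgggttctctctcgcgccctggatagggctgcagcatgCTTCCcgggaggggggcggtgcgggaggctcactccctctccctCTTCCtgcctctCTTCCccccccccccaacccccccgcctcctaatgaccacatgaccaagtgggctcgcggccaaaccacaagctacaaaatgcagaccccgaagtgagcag
Esm1: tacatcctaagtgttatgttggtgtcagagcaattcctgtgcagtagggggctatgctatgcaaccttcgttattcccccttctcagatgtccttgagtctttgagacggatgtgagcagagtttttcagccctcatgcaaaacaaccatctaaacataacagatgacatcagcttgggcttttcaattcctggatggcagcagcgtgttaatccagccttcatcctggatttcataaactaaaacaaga
Cxcr4: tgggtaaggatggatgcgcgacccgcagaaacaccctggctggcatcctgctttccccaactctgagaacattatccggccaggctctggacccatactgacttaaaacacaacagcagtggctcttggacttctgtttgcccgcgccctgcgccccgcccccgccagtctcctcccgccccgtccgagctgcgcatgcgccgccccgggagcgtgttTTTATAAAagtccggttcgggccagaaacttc
Tek: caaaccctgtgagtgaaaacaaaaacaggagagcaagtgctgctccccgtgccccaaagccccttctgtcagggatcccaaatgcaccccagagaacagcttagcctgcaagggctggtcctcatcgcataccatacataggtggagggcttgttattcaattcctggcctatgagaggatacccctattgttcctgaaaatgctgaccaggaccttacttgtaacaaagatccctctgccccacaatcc
The Apln window held GGAAG or its reverse complement 3 times. The Esm1, Cxcr4 and Tek windows held none, the window of Kit held 1 and that of Tie1 held 6. Over all 32851 windows, 64.1% held it. The shorter core GGAA was not searched for, and its reverse complement TTCC stands in the Esm1, Cxcr4 and Tek windows. The counts thus do not show that a window lacks an ETS core. Cxcr4 had the TATA box on both strands in overlapping letters. Over all windows, 12.4% held the box at least once on either strand. Neither ACGTG, a form of the hypoxia response core (16.6% of windows), the forkhead motif TGTTTAC (3.17%) nor the AP-1 motif TGANTCA (6.75%) was found in the 6 windows of members. All were searched on both strands. The other form of the hypoxia response core, GCGTG, was not searched for, and it stands in the Esm1 and Cxcr4 windows. The GC content was 65.2% for Apln, 61.2% for Cxcr4, 70.8% for Kit and 44.0% for Esm1, against a median of 52.4% over all windows. No letter pattern was common to Apln, Esm1 and Cxcr4 among those searched.

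The genes most like each member were taken as those with the highest mean log2 ratio between thinned capillary ECs with and without a UMI of it, among genes above 20 CPM whose ratio was above 0 in all 4 libraries. These ratios are descriptions. For Aplnr these were Prg4 (0.94 ± 0.18 SD, n = 4), Rasa4 (0.93 ± 0.15), Vcam1, Nr2f2 and Tmtc2, and Prg4 and Rasa4 also led or followed for Tek (0.50 ± 0.25 and 0.41 ± 0.24), with Vegfc and Ptgs1. Nr2f2 is a gene of the vein list, and its mean ratio for Aplnr was 0.72 ± 0.30. Tie1 had Ecm2 (0.33 ± 0.28), Aqp1 (0.31 ± 0.08), Stat2 and Uso1.

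Cells with Cxcr4 had more Ackr3 (0.94 ± 0.28), the other receptor of Cxcl12, and more of the gap junction gene Gja1 (0.93 ± 0.20), the netrin receptor gene Unc5b (0.93 ± 0.14), Stc1 and Igfbp3 (0.91 ± 0.08). Cells with Kit were led by the chemokine Cxcl9 (1.25 ± 0.86), Bcl2l11, Ivns1abp, Pxdn (1.07 ± 0.15) and Arhgef40. Cells with Angpt2 were led by Uchl1 (1.25 ± 0.24), with Msl3, Chek2 and Galnt1. Apln had 43 positive cells in NC 1, under the minimum of 50, and with a minimum of 40, chosen after that was seen, its genes were Uchl1 (1.63 ± 0.53), Cxcl10 (1.52 ± 1.29), Fxyd6 (1.49 ± 0.46), Tmem176b and Vim (1.36 ± 0.42). Uchl1 thus headed the lists of both Apln and Angpt2. In the 43 cells of NC 1 a single UMI stood for 23.3 CPM. The Apln ratios of genes such as Uchl1, at a mean of 115 CPM in cells with Apln, can therefore rest on few UMIs.

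The gene lists were chosen with earlier results of these data known, so the following counts are descriptions and not independent evidence. Of 16 tip cell genes above that level, 7 had a ratio above 0 in all 4 libraries in cells with Apln, where 8.76% of all genes did, and 4 had a ratio below 0, where 13.6% did. Among the 7 were Adm (1.09 ± 0.51), Trp53i11 (0.95 ± 0.24), Col4a1 (0.87 ± 0.21) and Nrp2 (0.76 ± 0.37), and Igfbp3 (-1.57 ± 0.86) and Kdr, the main Vegfa receptor (-0.44 ± 0.26), were among the 4. For Kit it was 7 of 16 above and 0 below, and for Angpt2 6 above and 1 below, where 7.72% and 6.90% of all genes were above. Of 12 immediate early and heat shock genes, 8 in cells with Aplnr, 8 in cells with Kit and 10 in cells with Angpt2 had a ratio below 0 in all 4 libraries, where 8.91%, 9.47% and 11.4% of all genes did. Cells with Apln showed this for 2 of the 12, where 13.6% of all genes did, cells with Tek for 4 (7.96%), cells with Cxcr4 for 1 (10.1%) and cells with Tie1 for 0 (7.63%). In cells with Tie1, 4 of the 12 had a ratio above 0 in all 4 libraries, where 10.3% of all genes did.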

How the data were processed

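Single-cell RNA was sequenced from 4 libraries of sorted left ventricular cells. The deposited values are UMI counts per gene and cell, which the authors made with fastp and Cell Ranger 5.0.1 on mm10. Per the study's methods, reads were downsampled between samples to make an aggregated matrix. Whether the counts of each library used here were downsampled is not stated, so the part of that step in depth per cell is not known. Members and gene lists were chosen with earlier results of these data known.

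Cells with over 200 genes, under 20% mitochondrial and under 1% hemoglobin UMIs were kept. Gates on marker genes set the classes: an EC had UMIs of at least 2 endothelial genes, an EC class took at least 2 genes of its list making up 0.1% or more of UMIs, and mural, fibroblast or leukocyte cells took at least 3 genes, with the same share of UMIs, whose UMIs outnumbered those of the endothelial list. Cells that met such a gate without outnumbering that list were left out as mixed, and no doublet caller was run. UMIs were summed per class and library and tested with edgeR 4.0.16 (TMM, filterByExpr, quasi-likelihood test, R 4.3.3), with diet as the only term between diets and libraries as blocks between classes. Adjusted p-values are Benjamini-Hochberg over all genes tested, at 0.05. DESeq2 1.42.0, other gates and filters, a replicate block and each library left out were the alternatives. On simulated counts for the capillary diet comparison (12421 genes), 137 of 200 genes changed by a log2 fold of 1 were recovered, with 9 false among 146 calls. The changed genes were drawn from those above a minimum of UMIs, and counts were drawn independently from the fitted spread. The recovery therefore does not hold for sparse genes, and may be too high for the data. There, 1 of 12577 genes was called, and Plaur, at 1.00 ± 0.17, was not. Named genes are the 9 members, every gene of the partner list, up to 4 genes of each other list whose diets did not overlap with the largest change, and the 5 genes most like a member. A few genes that this rule names are not reported here.

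The labels do not say whether the numbers on NC and HFpEF libraries pair them. The deviations of same-numbered libraries correlated at 0.0113 in capillary ECs and 0.0243 in artery ECs. In vein ECs and mural cells the correlations were -0.00907 and -0.00697. A correlation over all genes cannot exclude a pairing that moves few genes, so it does not settle whether the libraries pair. Single-cell shares used Python 3.11.15 with numpy 2.4.6, on cells thinned once to 1000 UMIs with shallower cells left out. Ratios between cells with and without a gene were taken after adding 10 CPM. Expected cells with both genes were the product of both shares in each library, summed. Gene positions came from GENCODE and promoters from RefSeq, both for GRCm38, with 6 of the 9 members matched in the promoter table.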

Additional observations from a re-analysis of the deposited data

Results flagged for a closer look

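With 2 libraries a diet, no library could be tested as an outlier. Signals of 3 members were found in cells that no comparison used, above every capillary library and with over 3 UMIs in all 4 libraries. Cxcr4 stood at 167 to 371 CPM in cells of the leukocyte gate (18 to 92 UMIs a library), against at most 27.7 in capillary ECs; Cxcr4 is a common leukocyte receptor. Angpt1 stood at 32.0 to 60.5 in fibroblast gate cells (4 to 11 UMIs), against at most 0.481 in capillary ECs. Kit stood at 42.1 to 172 in ECs of the proliferating gate (5 to 13 UMIs), against at most 19.9 in capillary ECs. These gates held 6 to 100 cells a library, and the differences were not tested.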

How the results depend on the processing

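Of 299 recomputed class differences of the members, 281 kept direction and side of the threshold, 12 lost the call, 1 gained it and 5 reversed; of 262 recomputed diet differences, 244 moved by less than the spread between libraries. The reversed values were uncalled to begin with: Tek in artery ECs was 0.00814 without NC 1 and 0.0431 without HFpEF 1 (range with a library left out -0.0685 to 0.0431), 0.0538 with gates on thinned cells and 0.00332 with gates of 1 more list gene, and Esm1 was -0.13 with gates on thinned cells. Angpt2 in mural cells lost its call in 9 alternatives (adjusted p 0.0508 to 0.209), and Esm1 in artery ECs gained one without a filter on low counts (0.0456). Without the replicate block, Apln, Aplnr and Tie1 in vein ECs lost their calls (adjusted p = 0.0684, 0.0738 and 0.0681), and 1723 genes in place of 3211 were called between artery and capillary ECs. The observed over expected ratio of Apln and Aplnr was 1.69 without thinning, and 0.74 to 1.12 with a library left out. Members called between diets in capillary ECs were 1 (Apln) without a filter on low counts and with the replicate block. Both settings also called many more of all genes than the test reported, as given in the next paragraph. The fit without HFpEF 1, described above, leaves that diet with a single library and is not counted here. The labels do not say whether the numbers 1 and 2 pair the libraries.

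Counts over all genes between the diets moved widely. In capillary ECs they were 1 by the test reported, 265 with DESeq2, 1030 without a filter on low counts, 235 with the replicate block and 30 to 483 with a library left out. In artery ECs, 14 became 22, 230, 194 and 4 to 65 in turn, 26 with all deposited cells or hemoglobin-rich cells kept, 34 with gates on thinned cells and 60 with 1 more list gene. In vein ECs, 19 became 92 without the filter, 9 with all deposited cells, 0 with gates on thinned cells, 30 with 1 more list gene and 0 to 101 with a library left out. In mural cells, 46 became 17 with DESeq2, 178 without the filter, 1 with the replicate block, 21 with 1 more list gene and 9 to 135 with a library left out. The cause was not tested. Depth limits Apln, Kit and Angpt1 outside capillary ECs, where 3 to 48 UMIs carry a class, and Esm1, Cxcr4 and Angpt2 in vein ECs, with 0, 11 and 8.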

Other observations

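Proliferating ECs, 33, 8, 6 and 50 cells in NC 1, NC 2, HFpEF 1 and HFpEF 2, held Apln at 81.0, 123, 68.8 and 189 CPM, above every capillary library. These values rest on 25, 14, 2 and 51 UMIs. Aplnr in the same cells was 84.3, 52.7, 68.8 and 85.3 CPM, which overlaps its capillary range of 60.6 to 101. Lymphatic ECs, 13 to 50 cells a library, held no Apln UMI in any library and Aplnr in HFpEF 2 alone (2 UMIs). Angpt2 in lymphatic ECs had 2, 19, 2 and 8 UMIs, or 21.3, 149, 41.1 and 49.0 CPM, above every capillary library, and Tie1 stood at 315 to 480 there.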
